A study of Schizosaccharomyces pombe with 2 samples.

Results

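The nuclear tRNA genes of the fission yeast Schizosaccharomyces pombe were examined for polyadenylated RNA ends inside and around them. All genes of biotype tRNA on chromosomes I to III of the RefSeq annotation were taken, 171 of 12606 annotated nuclear genes. A window held each tRNA gene and 200 nt on either side, and reads were counted separately on the strand of the tRNA (sense) and on the other strand (antisense). The tRNA genes were divided by whether a coding gene on the same strand ends within 1000 nt upstream, which holds for 45 of them (gaps of 142 to 953 nt, median 395 nt), while 126 have none.

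The study sequenced poly(A) site reads of total RNA from 2 cultures, both grown in minimal medium with thiamine, with 1 library per group. In nmt1-SEB1, the nmt1 promoter, which thiamine represses, drives seb1. The labels name this genotype a SEB1 KO and the series design speaks of a knockdown, so the strain is called nmt1-SEB1 here. The other culture was wild type. Seb1 is an RNA-binding protein that associates with RNA polymerase II and acts in 3′ end processing and termination.

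A tRNA gene is transcribed by RNA polymerase III from promoter elements within the gene, the A box and the B box, which the factor TFIIIC binds, and its transcription ends at a run of T just past the gene. The precursor is trimmed at both ends, spliced where it has an intron, given a CCA end, modified and exported. A mature tRNA has no poly(A) tail. Cells add short tails to aberrant tRNAs to mark them for the nuclear exosome, in fission yeast through the poly(A) polymerase Cid14. A polyadenylated end near a tRNA gene can also belong to an RNA polymerase II transcript of a neighbouring gene, and reads at a position do not say which polymerase made the RNA.

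Sequencing depth was 3376142 reads over 213060 positions for nmt1-SEB1, and 2702105 over 114578 for wild type. Counts were compared as RPM, gene-assigned reads scaled to 1000000, for which 1 read was worth 0.301 RPM in nmt1-SEB1 and 0.372 RPM in wild type. The targeted gene seb1 had 826 reads (249 RPM) in nmt1-SEB1 against 1848 reads (687 RPM) in wild type, a ratio of 0.362 (95% interval 0.333 to 0.393). Every ratio is nmt1-SEB1 over wild type with an exact binomial 95% interval that covers counting error only. Without replicates, the values compare these libraries, not the conditions. A window with at least 20 reads over both libraries was called higher where the ratio reached 2 with the interval above 1, and lower where it was 0.5 or less with the interval below 1.

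The tRNA genes lie on chromosome I (56), II (68) and III (47), are 71 to 102 nt long, and code for 20 tRNA products. Of these genes, 44 carry an intron. Only 37 have a sequence found a single time in the genome, whereas 134 have a repeated one, in sets of up to 9, and how the authors placed reads that match several copies is not given in the sources used here. Reads inside a repeated tRNA gene are therefore uncertain as to locus. The locus SPBTRNAASP.05 is annotated with the reverse complement of 7 other tRNA genes with ASP in the locus name, so its sense and antisense labels may be exchanged. The annotation gives 5 loci named ASP, SPBTRNAASP.05 among them, the product tRNA-Asn.

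Polyadenylated ends on the tRNA strand were more abundant in nmt1-SEB1. With each read counted a single time, the sense windows together held 4294 reads in nmt1-SEB1 (0.127% of nuclear reads) against 586 in wild type (0.0217%), a ratio of 5.94 (5.44 to 6.48). Without the 3 tRNA genes that held the most reads the ratio was 4.58, a check chosen after seeing the data. It was 3.70 with TMM and 3.44 with median-of-ratios scaling, 3.84 over tRNA genes with a sequence found a single time, and 2.93 with 500 nt on each side. A sense read was present at 119 genes for nmt1-SEB1 and at 83 for wild type, and 52 genes had none.

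Of the 171 sense windows, 43 reached 20 reads, of which 36 were higher in nmt1-SEB1, 0 were lower and 7 were neither. Among the sense windows of all annotated genes, 44.3% of those tested were called higher and 12.2% lower. The median log2 ratio was 2.20 over the tRNA windows tested and 0.77 over all genes' windows tested, with 0 reads set to a floor of 3. Most of the 43 reached the minimum through their nmt1-SEB1 reads, which favours the higher call: 36 held 20 or more reads in nmt1-SEB1 and 9 did in wild type. Of these 9 windows, 7 were higher and 2 neither. The count was sensitive to the scaling: with the TMM factors, taken over the gene counts, which lower every log2 ratio by 0.68, 22 of the 43 were higher and 0 lower, against 32.1% and 23.8% of all genes' windows. Windows of other noncoding genes gave 25 of 57 higher for snoRNA genes (median log2 ratio 0.85), 4 of 6 for snRNA genes (median 3.47) and 2267 of 3162, 71.7%, for lncRNA genes (median 2.45). The tRNA median thus lay below those of lncRNA and snRNA windows.

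**Figure D1:**
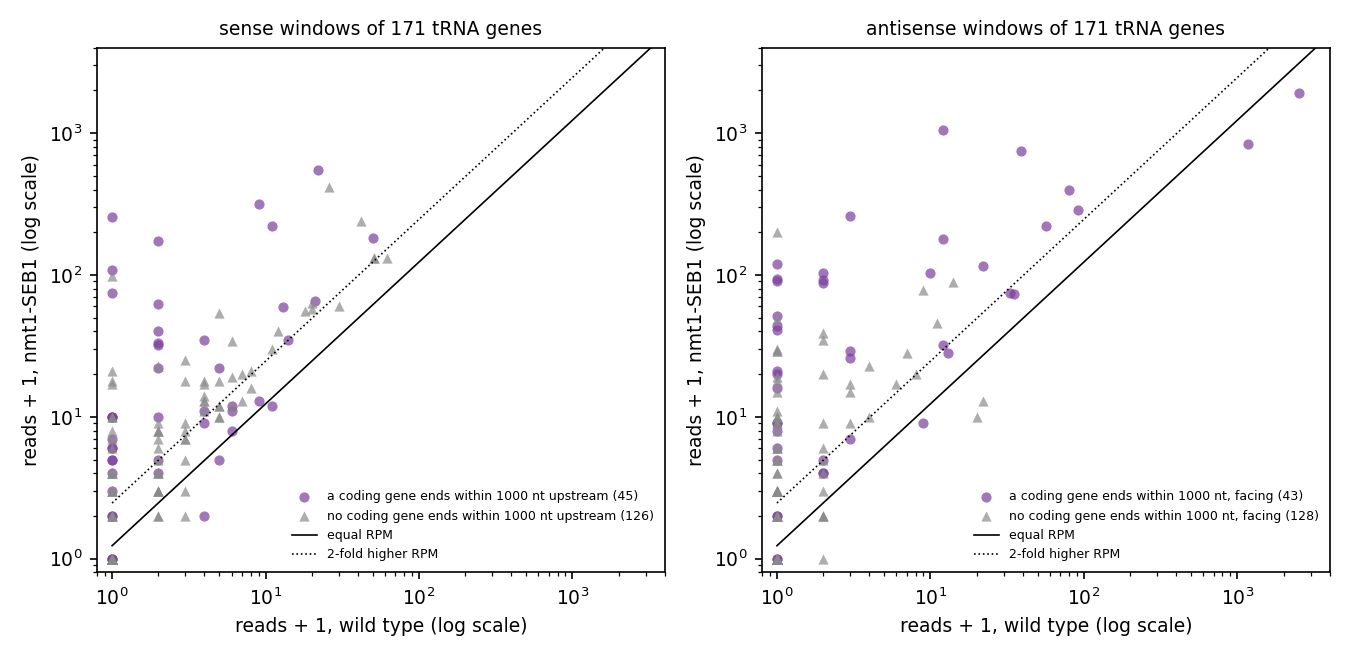
Reads plus 1 in the window of each of the 171 tRNA genes, wild type on the x axis and nmt1-SEB1 on the y axis (both log scales), for the sense strand (left) and the antisense strand (right); the solid line marks equal RPM and the dotted line 2-fold higher RPM. Most sense windows with many reads lie above the dotted line, up to 553 reads against 21, while the antisense windows with the most wild-type reads, 2525 and 1180, lie below the solid line.

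The added reads lay mostly before the tRNA. Upstream of the tRNA genes 2729 reads ended in nmt1-SEB1 against 175 in wild type, a ratio of 12.6 (10.8 to 14.8). Inside the genes there were 745 and 217 reads (ratio 2.78, 2.39 to 3.25), and downstream 820 and 194 (ratio 3.42, 2.92 to 4.03). The upstream flank thus held 63.6% of sense window reads in nmt1-SEB1 against 29.9% in wild type, and the inside of the gene 17.3% and 37.0%. The intervals of the ratios upstream and inside did not overlap.

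The upstream ratio was higher where a coding gene ends nearby. The 45 genes with a coding end upstream had 2060 upstream reads in nmt1-SEB1 against 107 in wild type, a ratio of 15.6 (12.8 to 19.1), and these were 85.3% of their sense window reads in nmt1-SEB1. The other 126 genes had 669 and 68 upstream reads, a ratio of 7.97 (6.20 to 10.4), or 35.6% of theirs. SPATRNAPHE.01 alone gave 414 and 25 of these, and without it 255 and 43 upstream reads remained, a ratio of 4.80 (3.47 to 6.80), or 17.4% of sense window reads in nmt1-SEB1 against 11.6% in wild type. Without SPBTRNAARG.05, the gene with the most upstream reads among the 45, their ratio was 12.4 (10.2 to 15.4). Leaving out these genes was chosen after seeing the data. Inside the tRNA, the ratios were 3.26 (2.28 to 4.76) and 2.68 (2.26 to 3.18) for the respective classes, with overlapping intervals. By gene, 20 windows with a coding end upstream were tested and 18 were higher (median log2 ratio 4.24), and 23 of the others were tested and 18 were higher (median 1.52), again against 44.3% over all genes. The median of the first class fell to 1.28 when every window with at least 1 read was counted, the same value as for the other class. These medians depend on the floor: 1 read against 0 counted as a log2 ratio of -1.89, as at SPATRNAGLY.01, because only the 0 was set to 3. Their equality therefore does not decide whether the classes differ. With 500 nt on each side the medians were 1.79 and 1.70.

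**Figure D2:**
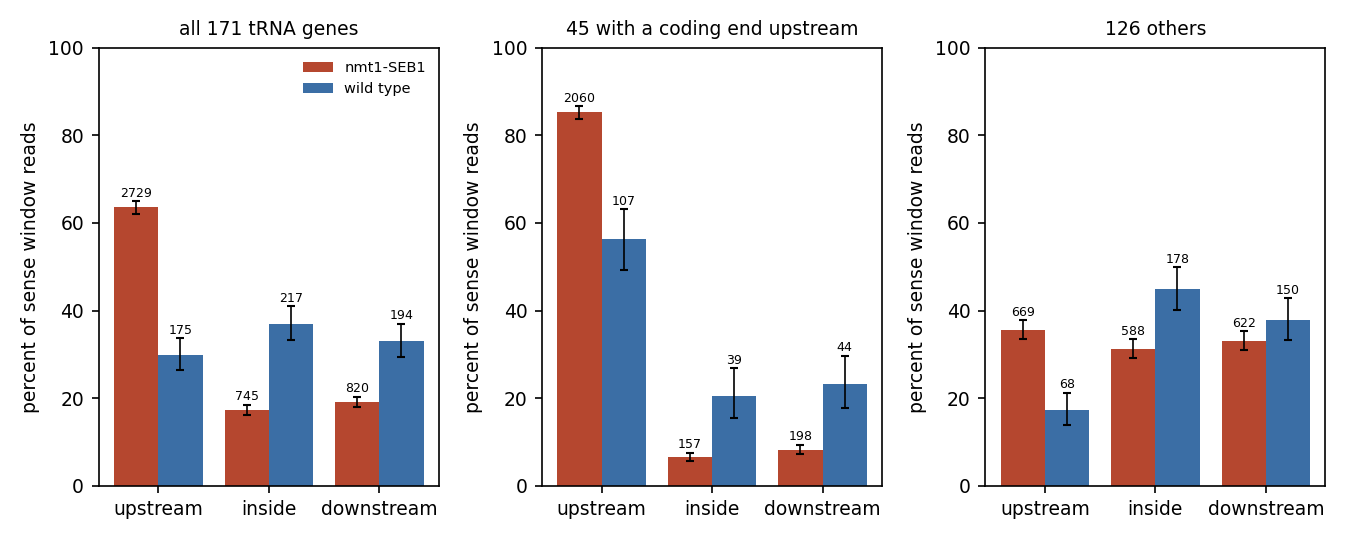
Percent of sense window reads that lay upstream of, inside or downstream of the tRNA, for all genes, for the 45 with a coding end within 1000 nt upstream and for the other 126; bars carry the read count and Wilson 95% intervals for counting error. In the 45-gene class the upstream bar reaches 85.3% in nmt1-SEB1 against 56.3% in wild type, and in the other class 35.6% and 17.2%.

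The leading upstream ends are shown in sequence because they hold many of the added reads. Each stretch runs 5′ to 3′ on the tRNA strand in 60 nt, and capitals mark positions at which at least 5% of the stretch's nmt1-SEB1 reads ended. The sequences and all coordinates are from the RefSeq genome (header ASM294v3).
SPBTRNAARG.05, upstream, chrII:1161100-1161159, minus strand: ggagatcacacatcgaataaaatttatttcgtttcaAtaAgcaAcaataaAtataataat
SPCTRNASER.08, upstream, chrIII:847528-847587, plus strand: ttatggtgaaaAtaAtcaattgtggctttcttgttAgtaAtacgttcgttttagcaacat
SPCTRNAPRO.09, upstream, chrIII:1788735-1788794, plus strand: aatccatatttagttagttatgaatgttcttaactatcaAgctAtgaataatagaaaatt
SPATRNASER.02, upstream, chrI:3047861-3047920, minus strand: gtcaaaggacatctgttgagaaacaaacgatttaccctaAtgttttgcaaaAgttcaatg
SPCTRNASER.07, upstream, chrIII:473393-473452, minus strand: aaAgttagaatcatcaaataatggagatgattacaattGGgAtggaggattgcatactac
SPATRNAPHE.01, upstream, chrI:3701425-3701484, plus strand: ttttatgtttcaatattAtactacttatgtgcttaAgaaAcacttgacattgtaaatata

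SPBTRNAARG.05, an arginine tRNA gene with an intron on chromosome II, had the most sense reads, 553 in nmt1-SEB1 against 21 in wild type (ratio 21.3, 13.8 to 34.7). Upstream of it lay 508 and 6 of these reads, and 267 of the nmt1-SEB1 reads shared the position 126 nt before the tRNA, where wild type had 2. The coding gene that ends upstream, 491 nt away, is stn1, which encodes a telomere capping protein. In the stretch shown, 462 of 499 reads ended at the capital A positions.

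Several named genes with a coding end upstream are serine tRNA genes. SPCTRNASER.08 (chrIII:847701-847782) had 255 sense reads, all upstream, in nmt1-SEB1 against 0 in wild type. With wild type set to the floor of 3 reads this was 68.9-fold higher, a value that is not a lower bound. SPATRNASER.02 (chrI:3047677-3047758), which lies 302 nt past the aconitase gene aco1, had 172 reads against 1, a ratio of 139 whose interval was wide (24.7 to 5535). SPCTRNASER.07 (chrIII:473199-473280), 318 nt past the histone chaperone gene nap1, had 316 against 8 (ratio 32.0, 16.0 to 74.8). SPCTRNASER.13 (chrIII:2072080-2072174), 373 nt past amt1, an ammonium transporter gene, had 108 against 0, 29.2-fold higher with the same floor. SPCTRNASER.12 (chrIII:1775992-1776073), 343 nt past mic26, had 182 against 49, the smallest ratio of these (3.01, 2.18 to 4.21) and no longer called with TMM factors. The tRNA sequences of SPATRNASER.02, SPCTRNASER.07, SPCTRNASER.08 and SPCTRNASER.12 belong to a set of 7 identical copies, but only 0 or 1 read lay inside each of them. The reads lay in their upstream flanks.

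SPCTRNAPRO.09 (chrIII:1788949-1789020), 353 nt past mrp49, a mitochondrial ribosomal protein gene, had 221 reads in nmt1-SEB1 against 10 in wild type (ratio 17.9, 9.55 to 37.9). Here both libraries used the same position, 175 nt before the tRNA, with 192 and 8 reads. SPBTRNAGLY.09 (chrII:2069487-2069557), 224 nt past the ribosome biogenesis gene rrs1, had 61 against 1 (ratio 49.4, 8.54 to 1984), divided as 29 upstream and 30 downstream of the tRNA. SPATRNAILE.01, 273 nt past hua1, had 39 against 1 (ratio 31.6, 5.35 to 1280), and 34 of these 39 lay inside the tRNA.

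The width of the window decided several of these directions. With 500 nt on each side, the windows take in the 3′ end region of the coding gene, and SPCTRNASER.07 then had 989 reads in nmt1-SEB1 against 1265 in wild type (log2 ratio -0.66), SPCTRNASER.13 had 228 and 250 (-0.44), and SPATRNAILE.01 had 246 and 254 (-0.35). SPBTRNAGLY.09 had 125 and 97 (0.06), and SPCTRNASER.12 had 307 and 125 (0.99), both no longer called. Others stayed higher with 500 nt: SPBTRNAARG.05 had 558 and 26 (4.12), SPCTRNASER.08 had 284 and 16 (3.85), SPCTRNAPRO.09 had 231 and 17 (3.46), and SPATRNASER.02 had 893 and 151 (2.26).

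The reads were also followed from the coding gene's annotated end to 200 nt past the tRNA. In nmt1-SEB1, 34 of the 45 genes had at least 20 reads in this stretch. At 24 of them under 5% of the reads lay past the tRNA, and at 9 none did. In wild type 10 genes had at least 20 reads, and 8 of them had under 5% past the tRNA. Past rpl4301, a ribosomal protein gene, 4549 reads lay in the gap before SPBTRNAGLN.03 and 0 inside or past the tRNA, with 1519 and 0 in wild type. Past tef3, a translation elongation factor gene, 10266 reads lay in the gap before SPCTRNASER.11, 9 inside it and 1 past it. The gap before SPCTRNASER.07 held 981 reads, with 2 past the tRNA, and that before SPATRNASER.02 held 680, with 4 past it. These shares depend on how long the gap is, and the coding gene's own sites fall within it.

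Not every tRNA gene in this class had most reads before it. SPCTRNAPHE.04, 180 nt past the mitochondrial ribosomal protein gene mrps8, had 7 reads in the gap and 56 past the tRNA in nmt1-SEB1, and 0 and 19 in wild type. SPATRNAVAL.01, past the iron-responsive repressor gene fep1, had 0 in the gap, 14 inside and 20 past. In equal stretches of 200 nt before and past the 45 tRNA genes, 199 of the nmt1-SEB1 reads outside the tRNA lay past it, 8.77% (7.68 to 10.01), and 44 of the wild-type reads, 28.2% (21.7 to 35.7). With the 100 nt nearest the tRNA left out, these shares were 4.57% (3.67 to 5.68) and 14.3% (7.70 to 25.0). The 15 genes with a sequence found a single time gave 13.7% (11.3 to 16.5) and 46.7% (30.2 to 63.9) over the whole stretch, and 5.28% (3.72 to 7.44) and 5.88% (1.05 to 27.0) with the nearest 100 nt left out.

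The same shares were taken past coding genes with no tRNA gene there. Counted after the coding gene's annotated end, 8.86% of the nmt1-SEB1 reads and 31.0% of the wild-type reads lay past the 45 tRNA genes. Stretches placed at the same distances past 3739 other coding genes gave 26.7% and 20.9%. The tRNA genes thus lay below the other coding ends in nmt1-SEB1 and above them in wild type. The wild-type share rests on 98 reads before and 44 past the tRNA genes, and SPCTRNAPHE.04 alone gave 19 of the 44. In nmt1-SEB1 it gave 56 of 199. The position above the other coding ends in wild type therefore leans on that gene. Of stretches with at least 20 reads, under 10% lay past the tRNA at 11 of 16 tRNA genes in nmt1-SEB1 (68.8%), against 48.3% at the other coding ends. In wild type this held at 1 of 1 tRNA gene and at 68.8% of the others. This comparison was chosen after seeing the data, uses a coding gene at several distances, and carries no test.

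Among the tRNA genes with no coding end within 1000 nt upstream, SPATRNAPHE.01 (chrI:3701556-3701628) had the most sense reads, 417 in nmt1-SEB1 against 25 in wild type (ratio 13.5, 9.03 to 21.1). All but 3 of the nmt1-SEB1 reads lay upstream, 124 of them at the position 92 nt before the tRNA, shown above, where wild type had 2. The nearest coding end on its strand is that of mde6, 1529 nt away, and the annotated lncRNA SPNCRNA.3653 ends within the window.

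SPATRNACYS.01 (chrI:1421149-1421221) showed the reverse arrangement, with 239 of 240 reads downstream in nmt1-SEB1 and all 41 downstream in wild type (ratio 4.74, 3.39 to 6.78). Its leading position lay 116 nt past the tRNA, with 45 and 7 reads. SPBTRNAASN.02 (chrII:2032160-2032233) had 97 reads, 95 of them downstream, against 0, 26.2-fold higher with wild type set to the floor of 3 reads. The ends past these genes are shown because they differ in their letters from the upstream ends, with T as well as A at the marked positions.
SPATRNACYS.01, downstream, chrI:1421298-1421357, plus strand: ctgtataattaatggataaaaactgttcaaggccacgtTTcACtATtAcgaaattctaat
SPBTRNAASN.02, downstream, chrII:2032258-2032317, plus strand: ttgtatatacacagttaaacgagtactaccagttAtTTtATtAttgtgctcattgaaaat

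Downstream ends of the tRNA genes as a whole often fell on T. The genomic base at the deposited position was T for 41.5% of the 820 downstream reads in nmt1-SEB1 against 45.4% of the 194 in wild type, and A for 50.2% and 46.4%. Over all nuclear reads T stood at 2.20% and 2.18% and A at 92.1% and 92.5%, and upstream of the tRNA genes A stood at 86.6% and 75.4%. The base after the position was A in 0.217% to 0.305% of reads on each chromosome, so a deposited position is nearly always the last base of any A run in the genome, and an end before that run cannot be told from one after it. A run of TTTT, the letters searched on the tRNA strand, started within 40 nt past 167 of 171 tRNA genes (97.7%), at a median of 4 nt, and within 40 nt past 42.8% of coding genes. Searched on both strands, it was present past 97.7% of tRNA genes and 66.8% of coding genes. Of the downstream reads, 95.2% in nmt1-SEB1 against 91.2% in wild type ended after this first run, 3.54% and 6.70% within it. Single genes weigh on the downstream figures: SPATRNACYS.01 gave 239 of the 820 reads, and T stood at 49.8% of its reads in nmt1-SEB1.

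**Figure D3:**
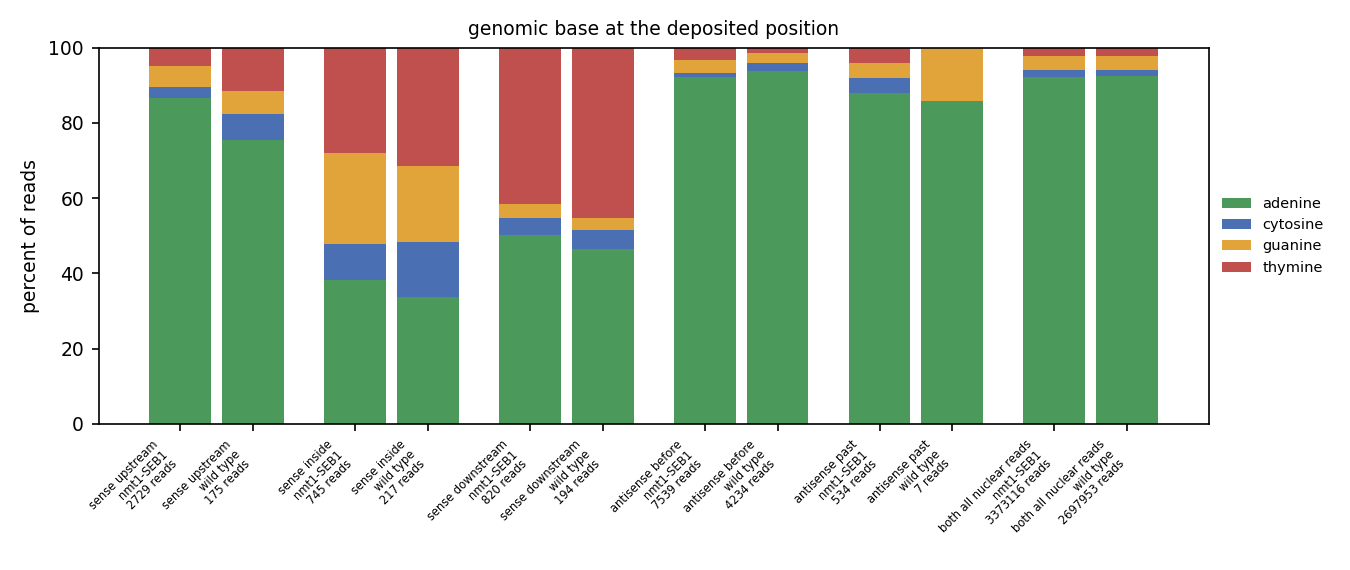
Genomic base at the deposited read position, as percent of reads, by place around the tRNA genes and by library, with all nuclear reads at the right. Adenine stands at 86.6% of sense upstream and 92.2% of antisense reads before the tRNA in nmt1-SEB1 but at 50.2% downstream and 38.3% inside, where thymine reaches 41.5% and 28.1%.

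Reads that end inside a tRNA gene, on its strand, were found at 67 genes in nmt1-SEB1 against 33 in wild type, and at neither in 103 genes. Of 13 genes with at least 20 such reads, 10 were higher and 0 lower, where 33.9% of all annotated genes' bodies were higher. Most of the 13 reached the minimum through their nmt1-SEB1 reads, which favours the higher call. In nmt1-SEB1 9 of them held 20 or more reads, and in wild type 2 did, of which 2 were higher. With TMM factors 3 of the 13 were higher against 25.0% of all bodies, so the calls inside the tRNA rest on the scaling. In nmt1-SEB1, the 5 genes with the most held 50.5% of these reads. Printed whole are the 5 genes with the most inside RPM summed over both libraries, a set that differs from the former. SPATRNAILE.01, whose ends lie near its start, is added. Capitals stand at positions holding at least 5% of the nmt1-SEB1 reads of that stretch.
SPBTRNAMET.05, 5 nt spacer, SPBTRNAASN.01 and 10 nt after it, chrII:1597986-1598155, minus strand: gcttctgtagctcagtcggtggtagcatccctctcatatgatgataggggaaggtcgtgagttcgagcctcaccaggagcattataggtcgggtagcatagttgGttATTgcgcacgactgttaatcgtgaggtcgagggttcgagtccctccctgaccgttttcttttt
SPATRNAVAL.03, chrI:2214733-2214814, minus strand: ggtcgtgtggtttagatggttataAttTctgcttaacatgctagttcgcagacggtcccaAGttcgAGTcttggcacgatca
SPATRNALEU.03, chrI:3591948-3592044, plus strand: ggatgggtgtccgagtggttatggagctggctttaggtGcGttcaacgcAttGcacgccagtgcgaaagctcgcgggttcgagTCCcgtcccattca
SPCTRNASER.10, chrIII:1253193-1253287, plus strand: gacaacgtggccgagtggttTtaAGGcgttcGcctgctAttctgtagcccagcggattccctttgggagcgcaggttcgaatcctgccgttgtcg
SPBTRNAARG.05, chrII:1160893-1160994, minus strand: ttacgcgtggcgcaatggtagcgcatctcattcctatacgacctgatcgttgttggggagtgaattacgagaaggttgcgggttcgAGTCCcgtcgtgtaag
SPATRNAILE.01, chrI:1772296-1772369, plus strand: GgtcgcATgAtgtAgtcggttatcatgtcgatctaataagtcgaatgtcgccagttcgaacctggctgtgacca

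SPBTRNAASN.01, an asparagine tRNA gene, held the most, 126 reads inside in nmt1-SEB1 against 48 in wild type (ratio 2.13, 1.51 to 3.03). It follows SPBTRNAMET.05, a methionine tRNA gene, after a spacer of 5 nt, and the leading position, 23 nt into the asparagine tRNA, had 41 and 22 reads. Only 4 and 1 reads lay inside the methionine tRNA. Their windows overlap and held 130 against 50 reads each (ratio 2.11, 1.51 to 2.98), and both calls were lost with TMM factors. The sequence of SPBTRNAASN.01 has 5 copies, so its inside reads could come from another copy. In the other 3 tandem pairs, a serine tRNA gene followed after 7 nt by a methionine tRNA gene, the serine tRNA held 6 to 9 reads in nmt1-SEB1 against 0 to 5 in wild type, while the methionine tRNA held 0 in both libraries.

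SPATRNAVAL.03, found a single time in the genome, held 101 reads inside in nmt1-SEB1 against 40 in wild type (ratio 2.05, 1.41 to 3.03), spread over many positions, the leading one with 10 and 10. Its whole window was not called, at 130 against 61 (ratio 1.73, 1.26 to 2.38), and the reads past it numbered 18 and 20. SPATRNALEU.03 held 50 and 17 inside (ratio 2.38, 1.35 to 4.41), SPCTRNASER.10 held 50 and 13 (3.12, 1.67 to 6.25) and SPBTRNAARG.05 held 43 and 13 (2.68, 1.41 to 5.43). The whole windows of SPATRNALEU.03, with 57 and 19 reads, and SPCTRNASER.10, with 55 and 17, lost their calls with TMM factors. These windows and that of SPBTRNAASN.01 also lost their calls with 500 nt on each side. SPATRNAILE.01 stood apart among the named genes with 34 against 1 (27.5, 4.62 to 1120).

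By position, 48.2% of inside reads in nmt1-SEB1 ended 21 to 40 nt from the first base of the tRNA gene, and 37.3% in wild type. From 41 nt to the end lay 41.5% and 56.2%, and in the first 20 nt 10.3% and 6.45%. The last 5 nt of the tRNA gene held only 5 and 1 reads. The CCA end of a mature tRNA is added past these bases, and how reads with it would be placed was not tested. In genes with an intron, exon 1 held 120 and 24 reads, the intron 45 and 12, and exon 2 204 and 92. The B box was searched as GTTCNANNC on the tRNA strand and was present in 156 of 171 tRNA genes (91.2%) and in 0.509% of windows of 73 nt after coding genes. Searched on both strands, it was present in 161 tRNA genes (94.2%) and 1.29% of those windows. It covers 10.7% of the tRNA gene bases, and 195 of 745 inside reads ended in it in nmt1-SEB1 (26.2%, 23.2 to 29.5) and 67 of 217 in wild type (30.9%, 25.1 to 37.3). In SPBTRNAARG.05 the capitals begin within this motif.

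On the antisense strand the windows together held 8113 reads in nmt1-SEB1 against 4244 in wild type, a ratio of 1.55 (1.49 to 1.61). This sum is decided by a few genes and by the scaling: it was 6.61 without the 3 tRNA genes that held the most reads (chosen after seeing the data), 11.9 with 100 nt on each side, 0.707 with 500 nt, and 0.965 with TMM factors. Of 44 windows tested, 35 were higher and 2 lower, where 45.6% of all genes' antisense windows were higher and 12.5% lower. The lower windows were those of SPATRNASER.04, with 12 and 21 reads, and SPCTRNAHIS.03, with 9 and 19. Both were named after their values were seen. Most higher calls again reached the minimum through the nmt1-SEB1 reads, since 10 of the 44 windows had 20 reads in wild type, of which 5 were higher, 1 lower and 4 neither.

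A coding gene facing the tRNA ends within 1000 nt of 43 tRNA genes, and each of the 6 tRNA genes with the most antisense reads has such a neighbour. SPBTRNAPRO.07 (chrII:2939715-2939786) lies 100 nt from the end of SPBC1703.13C and had 1919 antisense reads in nmt1-SEB1 against 2525 in wild type (ratio 0.616, 0.580 to 0.654). All 2525 in wild type lay before the tRNA, on the side of the coding gene, whereas nmt1-SEB1 had 1725 there and 193 past it. SPATRNAALA.06 (chrI:4796977-4797059), 136 nt from rtf1, had 841 and 1180 (ratio 0.577, 0.528 to 0.631). Both ratios were below the other 4 named genes' but neither was called. Both were called lower with TMM factors (log2 ratios -1.38 and -1.48) and turned above 1 where reads inside another annotated gene were left out.

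The remaining antisense windows named by read number were higher in nmt1-SEB1. SPATRNAMET.01 (chrI:1096474-1096545), 219 nt from the ribosomal protein gene rpl3802, had 1054 against 11 (ratio 77.6, 43.2 to 156), and 844 of these reads shared a position 166 nt from the tRNA that held the 11 wild-type reads. SPBTRNAGLU.05 (chrII:820491-820562), 242 nt from pdf1, had 752 against 38 (16.0, 11.6 to 22.8). SPCTRNAGLY.12 (chrIII:2037352-2037422), 248 nt from met1, had 394 against 79 (4.04, 3.17 to 5.21). SPBTRNAPRO.04 (chrII:1825787-1825858), 164 nt from nop52, had 285 against 91 (2.54, 1.997 to 3.25), with 86 and 1 of these past the tRNA, and its call was lost with TMM factors and with 500 nt on each side. With 500 nt on each side, SPATRNAMET.01 (2871 and 5360 reads) and SPCTRNAGLY.12 (753 and 1259) were lower in nmt1-SEB1 instead.

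Past the tRNA on the antisense strand, wild type had almost no reads. There, 534 reads ended in nmt1-SEB1 against 7 in wild type, a ratio of 61.8 (29.8 to 154), and inside the tRNA 40 and 3. Before the tRNA the counts were 7539 and 4234 (1.44, 1.39 to 1.498). SPBTRNAPRO.07 and SPBTRNAPRO.04 gave 193 and 86 of the 534. Close to the tRNA, 125 reads in nmt1-SEB1 ended 5 to 20 nt past it, at 32 tRNA genes, against 1 in wild type, and the next 20 nt held 1 and 1. SPBTRNALEU.10 gave 43 of the 125, and 14 of the 32 genes have a facing coding end. Of the 32 genes, 19 have a repeated tRNA sequence. A read that ends so close may reach back into the tRNA, which leaves its locus uncertain at these 19.

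**Figure D4:**
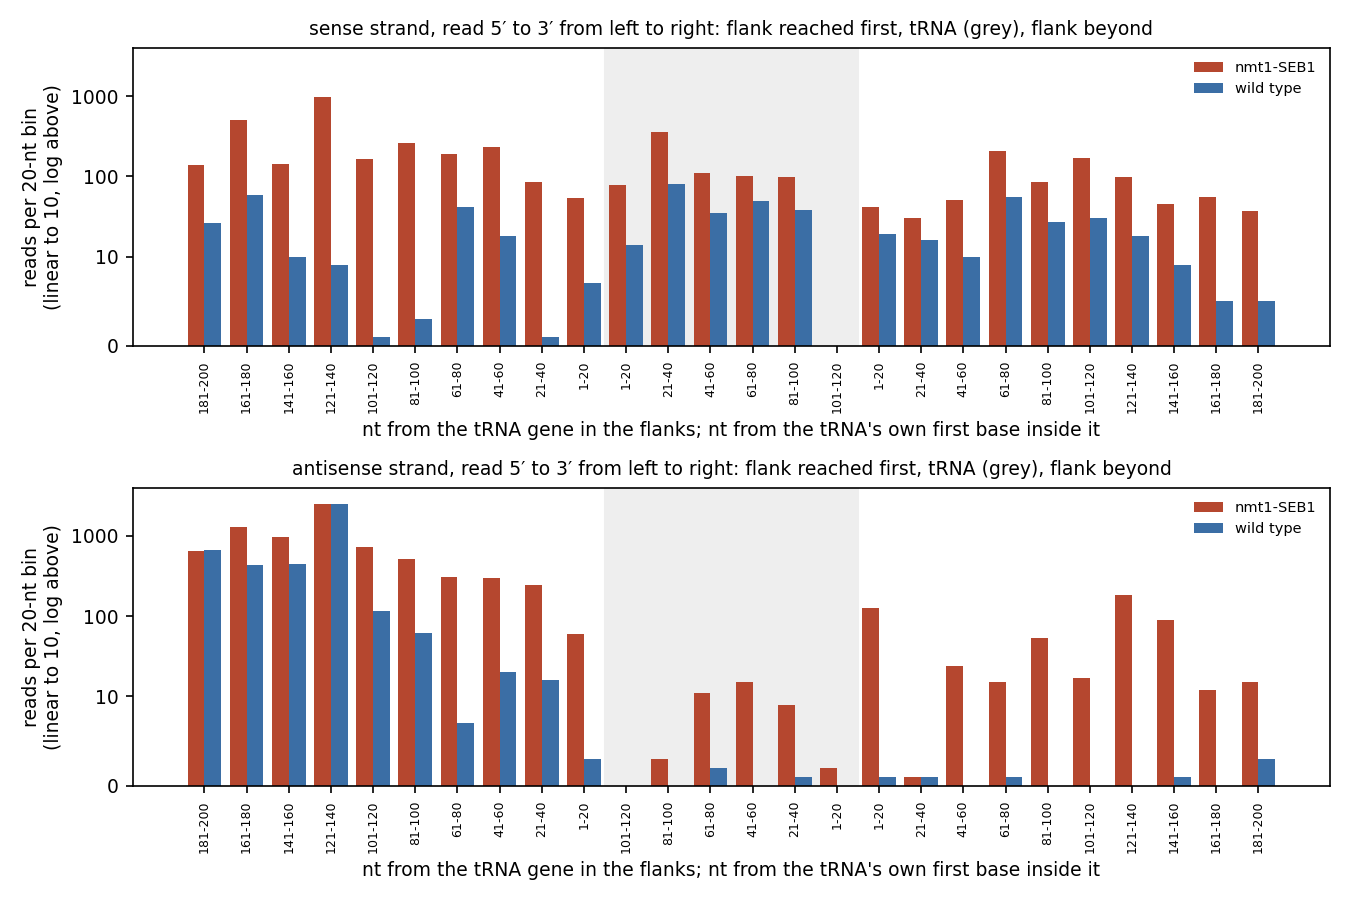
Reads per 20-nt bin around the tRNA genes on the sense strand (top) and the antisense strand (bottom), each drawn so that RNA runs from left to right, with the tRNA in grey; the y axis is linear to 10 and logarithmic above. On the antisense strand the first bin past the tRNA holds 125 reads in nmt1-SEB1 against 1 in wild type, and the next bin 1 and 1.

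By gene, the place where reads gathered differed between the strands. In nmt1-SEB1, 36 sense windows had at least 20 reads, and most of their reads lay before the tRNA in 17, inside in 11 and past it in 8. Of 39 antisense windows with 20 reads, the reads lay mostly before the tRNA in 37, inside in 0 and past it in 2. In wild type 9 sense windows divided as 2, 3 and 4, and all 10 antisense windows had most reads before the tRNA.

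The 5 lowest sense ratios among windows with at least 20 reads ran from 0.891 to 1.74, with that of SPATRNAVAL.03 (1.73) given above. SPATRNAALA.01 (chrI:934665-934738), 203 nt past SPAC1687.17C, had 11 reads in nmt1-SEB1 against 10 in wild type (ratio 0.891, 0.344 to 2.34), and SPATRNALEU.01 had 12 and 8 (1.22, 0.457 to 3.43), with 9 and 0 upstream but 3 and 8 inside. SPATRNATYR.01 had 59 and 29 (1.65, 1.04 to 2.67), of which 54 and 28 lay downstream, and SPATRNALEU.02 had 15 and 7 (1.74, 0.666 to 5.03), all but 1 of them inside the gene. None of these ratios reached 2, and the intervals of SPATRNAALA.01, SPATRNALEU.01 and SPATRNALEU.02 include it as well as 1.

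The genes that make and process tRNA were read from the same libraries, with reads assigned to coding genes. Of 85 symbols asked, 73 matched a gene and 67 had at least 20 reads, of which 21 were higher, 12 lower and 34 neither. Over all coding genes tested, 26.0% were higher and 17.0% lower, and the median log2 ratio was 0.21 over the list and 0.20 over all coding genes. With TMM factors, which lower every log2 ratio by 0.68, 8 were higher and 21 lower, so the balance of directions depends on the scaling. The share of all coding genes called with these factors was not taken, so the 21 cannot be set against it. RNA polymerase III subunits and factors gave 4 higher and 3 lower of 20 tested. Precursor processing gave 5 and 6 of 19, export 0 and 0 of 2, polyadenylation and decay 4 and 2 of 9, and modification 8 and 1 of 17.

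Subunits of the same enzyme moved apart. Of the tRNA splicing endonuclease, sen54 had 616 reads in nmt1-SEB1 against 61 in wild type (log2 ratio 3.03), while sen2, for one of its catalytic subunits, had 129 and 480 (log2 ratio -2.20). The other catalytic subunit gene, sen34, had 20 and 8 (1.02) and was not called. Of RNase P and RNase MRP, which share subunits and cut the 5′ leader of precursors and ribosomal RNA respectively, pop7 had 269 and 53 (2.04) and pop4 had 211 and 522 (-1.61). Among the modification genes, the tRNA methyltransferase gene trm7 had 209 and 31 (2.45) and trm10 had 17 and 3 (2.20), whereas the pseudouridine synthase gene pus1 had 85 and 443 (-2.69). Of the decay group, lsm2, of the Lsm ring, had 212 and 508 (-1.56), and air1, which encodes a zinc knuckle partner of Cid14, 18 and 43 (-1.56). The polymerase gene cid14 itself had 84 and 84 (log2 ratio -0.30) and was not called.

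Some members do not do what the list's name says. The symbols pop1 and pop3 belong in budding yeast to RNase P subunits. In fission yeast, however, pop1 and pop2 encode F-box proteins of a ubiquitin ligase. The symbol pop3 is there a synonym of wat1, a WD-repeat protein of the TOR complexes. Of these, pop2 had 36 and 156 reads (log2 ratio -2.42) and wat1 410 and 83 (2.001). Likewise cid12, with 788 and 220 reads (1.54), acts with an RNA-directed RNA polymerase complex, and mod5, with 32 and 43 (-0.73), is a cell polarity protein in fission yeast.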

How the data were processed

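Per the labels, the deposited values are counts: whole numbers of poly(A) site-supporting (PASS) reads per position and strand, not normalized, with 1 table per library. Reads were aligned with Bowtie2 to ASM294v2, per the submitters' processing notes. For Bowtie2 no version, for reads no filter and for multiply matching reads no rule was given in the sources used here. The annotation and genome were RefSeq's, whose header reads ASM294v3, so the match was checked on the nuclear chromosomes from the base at and after each position (A at 92.1% and 92.5% of reads, then A at 0.217% to 0.305%), which reads positions as counted from 1. Other contigs were not used.

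RPM used the reads lying inside a gene or within 1000 nt past it, 3319446 for nmt1-SEB1 and 2689228 for wild type. Ratios carry exact conditional binomial 95% intervals (Clopper-Pearson) and shares carry Wilson intervals. Reads from PCR are not independent molecules, so both cover counting error only. A count of 0 was set to 3 for folds, so 1 or 2 reads against 0 gave a ratio below 1. Pooled values count each read a single time. There is no test of the conditions.

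The text names the 12 tRNA genes with most sense RPM, the 6 with most antisense RPM, and the 5 highest and 5 lowest ratios. It also names the 5 with most RPM inside, summed over both libraries, and up to 6 called genes of the list in each direction. Of the genes this rule names, 1 is not reported here. Other genes named were chosen after their values were seen. The members, lists and tests were chosen with earlier results of these data known. Alternatives were the flank, scaling (TMM from edgeR 4.0.16 or median-of-ratios), read minimum, upstream distance, position base, leading position, other genes' reads and single-copy genes. The call rule was tested on simulated counts that vary by counting error only, so that test does not cover differences between cultures. Python 3.11.15, numpy 2.4.6, scipy 1.17.1 and pandas 2.3.3 were used.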

Additional observations from a re-analysis of the deposited data

Results flagged for a closer look

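Outside chromosomes I to III, the contig named MTR held 62 reads from nmt1-SEB1 and 18 from wild type, a ratio of 2.79 (95% interval 1.63 to 5.01 for counting error). It entered none of the comparisons above, and it is listed because its level lay above that of the wild-type library. Of the other contigs not used, AB325691 held 2958 and 4126 reads (ratio 0.581, 0.554 to 0.609) and MT 6 and 8 (0.608, 0.174 to 1.997).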

How the results depend on the processing

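No paired analysis was possible because each group has 1 library. With 1 library per group, no replicate can be left out either.

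The pooled sense ratio stayed above 2 in every alternative run, from 2.93 with 500 nt on each side to 6.23 with reads inside other genes left out. TMM and median-of-ratios factors shift every log2 ratio by -0.68 and -0.79. Higher sense windows then numbered 22 and 22 of 43, against 32.1% and 30.4% of all genes' windows. Higher antisense windows numbered 32 and 31 of 44 (all genes 31.8% and 30.3%), and lower ones 4 and 4 (all genes 23.1% and 25.2%). Higher tRNA bodies numbered 3 and 3 of 13, against 25.0% and 24.1% of all bodies. Of 67 synthesis and maturation genes, 8 and 6 were higher and 21 and 24 lower. Shares over all coding genes were not taken with these factors. The median log2 ratio without a coding end upstream was 0.84 and 0.73. The pooled antisense ratio then turned to 0.965 and 0.897, and to 0.707 with 500 nt. It passed 2 with 100 nt (11.9), with the leading position left out (2.24), with reads inside other genes left out (9.50), and without the 3 genes with most reads (6.61, added after seeing the data).

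Narrower windows of 100 nt gave 21 of 27 tested sense windows higher (77.8%). Of 21 antisense windows then tested, 20 were higher (95.2%) and 1 lower. With 500 nt, 10 of 67 tested antisense windows were lower. At least 50 reads gave 21 of 23 sense and 20 of 24 antisense windows higher, 0 antisense lower and 6 of 6 bodies higher. Genes with a sequence found a single time gave 13 of 18 sense windows higher. Their antisense windows were higher at 13 of 16 and lower at 0, and their bodies higher at 4 of 7. Lower antisense windows numbered 0 of 29 without the leading position and 1 of 34 without reads inside other genes. Shares over all genes were not taken for these alternatives. The share of sense reads inside the tRNA was 37.5% with 100 nt, 5.89% with 500 nt, 20.7% without the leading position, 25.7% for single-copy genes and 23.3% without the 3 genes with most reads (added after seeing the data). The median log2 ratio with a coding end upstream was 1.79 with 500 nt. With no minimum it was 1.28, a value that depends on the floor. For genes with no coding end upstream it was 1.70 with 500 nt.

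Single windows changed direction. With 500 nt, log2 ratios were 0.59 for SPATRNAALA.01, -0.35 for SPATRNAILE.01, -0.069 for SPATRNALEU.02, -0.66 for SPCTRNASER.07, -0.44 for SPCTRNASER.13, and on the antisense strand -1.20 for SPATRNAMET.01 and -1.05 for SPCTRNAGLY.12. With 100 nt, antisense SPBTRNAPRO.07 was at 5.58 and SPATRNAALA.06 at 2.19. With reads inside other genes left out these were at 7.62 and 1.22, and without the leading position SPBTRNAPRO.07 was at 0.46. SPATRNALEU.01 was at -0.40 with TMM and -0.51 with median-of-ratios, where SPATRNATYR.01 was at -0.068 and SPATRNAVAL.03 at -0.00054. Narrower windows and stricter minimums hold fewer reads and wider ones take in neighbouring coding ends by construction. For the other changes the cause was not tested. Counts of a few reads limit what can be said of most of the 171 genes.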
